A study of Mus musculus with 8 samples.

Results

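The genes described here are 40 interferon-stimulated effector genes other than the IFIT, OAS, ISG15 and MX1 genes. They encode proteins that edit or destroy viral RNA, bind it, attach ISG15 to other proteins, trap virus at membranes or regulate the response itself. Members were chosen by symbol, and each was read from the array row whose RefSeq identifier maps to that symbol. 1 row was found for 39 of the 40 members, of 24625 rows in all, and Xaf1 was not analysed here because no row was matched to it. The series held 8 samples of lung neutrophils from wild type mice of 6 to 12 weeks by the labels (a narrower range in the methods), 4 after phosphate-buffered saline (PBS) and 4 after Streptococcus pneumoniae (SP). The bacteria, suspended in PBS, or PBS alone were given intratracheally to the left lung in a volume of 2.3 µl/g, and the lungs were taken 24 h later. Per the study's methods the animals came from C57BL/6J colonies, and cells of the digested, perfused lungs were pulled down with magnetic beads through biotinylated anti-Ly6G. No allele or transgene separated the groups, and all cells had passed the same bead selection. RNA of each sample was hybridised to 1 Affymetrix Mouse Gene 1.1 ST array, and levels are log2 signals, so that a difference of 1 is a 2-fold change.

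Interferons are secreted proteins that warn cells of infection. Type I interferons (IFN-α and IFN-β) bind the receptor of IFNAR1 and IFNAR2, and the kinases JAK1 and TYK2 then phosphorylate STAT proteins, which join IRF9 and bind a DNA element called the interferon-stimulated response element (ISRE). Type II interferon (IFN-γ) acts through another receptor and a DNA element called the gamma-activated site (GAS), and both routes raise the transcription of many effector genes in neutrophils and other cells.

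RefSeq promoter windows on GRCm38.p6 hold 250 bases before and 50 after an annotated transcript start and were listed for 35 of the 40 members. None was listed for Usp18, Mx2, Ly6e, Rtp4 and Tor3a. An ISRE core was searched as GAAANNGAAA and a GAS core as TTCNNNGAA, both on either strand, where N is any base, and the motifs can share letters. The ISRE core was present for 10 of 35 members (28.6%) and for 3.99% of the 27025 symbols with a window (3.44% of the 32851 windows). The GAS core was present for 8 of 35 members (22.9%) and for 9.55% of all symbols (8.30% of windows). The stretches around the ISRE core are shown for the 4 members with the largest called rise that hold one (Rsad2, Bst2, Ddx60 and Eif2ak2). Those of Ifitm2 and Ifitm3 were added after their values were seen, because both hold the core and their signals differed little between the groups. Each is written 5′ to 3′ on the strand of its gene, and capitals mark the core or, on the opposite strand, its complement.
Rsad2 (chr12:26456528-26456607, minus strand): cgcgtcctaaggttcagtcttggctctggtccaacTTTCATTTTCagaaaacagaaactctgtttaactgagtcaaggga
Bst2 (chr8:71537552-71537637, minus strand): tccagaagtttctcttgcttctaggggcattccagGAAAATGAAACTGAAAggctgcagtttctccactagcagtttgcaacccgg
Ddx60 (chr8:61927999-61928112, plus strand): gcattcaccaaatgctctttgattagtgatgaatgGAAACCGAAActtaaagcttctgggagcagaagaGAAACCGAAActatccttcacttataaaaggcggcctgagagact
Eif2ak2 (chr17:78882523-78882589, minus strand): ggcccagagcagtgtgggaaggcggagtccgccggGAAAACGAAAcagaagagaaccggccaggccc
Ifitm2 (chr7:140955963-140956042, minus strand): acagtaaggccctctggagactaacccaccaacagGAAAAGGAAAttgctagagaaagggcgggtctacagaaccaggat
Ifitm3 (chr7:141010695-141010777, minus strand): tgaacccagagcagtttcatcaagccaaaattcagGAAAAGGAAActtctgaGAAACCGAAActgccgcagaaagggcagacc

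The core of Rsad2 began 120 bases before the annotated start and that of Ifitm2 46 bases before it. Bst2 held 2 overlapping cores, which began 130 and 124 bases before the start, and Ddx60 held 2 separate ones, at 53 and 19 bases before it. In Eif2ak2 the core began 18 bases after the start, and in Ifitm3 the 2 cores began 2 and 19 bases after it. A match describes the letters of the window and is not evidence that a factor binds there.

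Most of the effector genes were higher in the SP samples. By limma with Benjamini-Hochberg adjustment over all rows, 28 of the 39 measured members rose at least 2-fold (adjusted p at most 0.05), against 6.37% of all rows. None fell 2-fold by limma, by an unadjusted p under 0.05 or by the methods' t-test, against 11.3% of all rows by limma. A further 7 members rose by less than 2-fold, so that 35 of 39 (89.7%) passed the adjusted p, against 44.1% of all rows. The 4 SP values lay entirely above the 4 PBS values in the same number of members, 35, against 49.0% of all rows whose groups did not overlap in either direction. The difference was above 0 in 36 members, against 60.6% of all rows. 16 members rose at least 4-fold, against 2.17% of all rows, and 5 at least 8-fold, against 0.755%. The median difference of the members was 1.90 log2 units, a 3.73-fold change, with quartiles of 0.95 and 2.59. Over all rows the median was 0.10, with quartiles of -0.36 and 0.29.

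**Figure D1:**
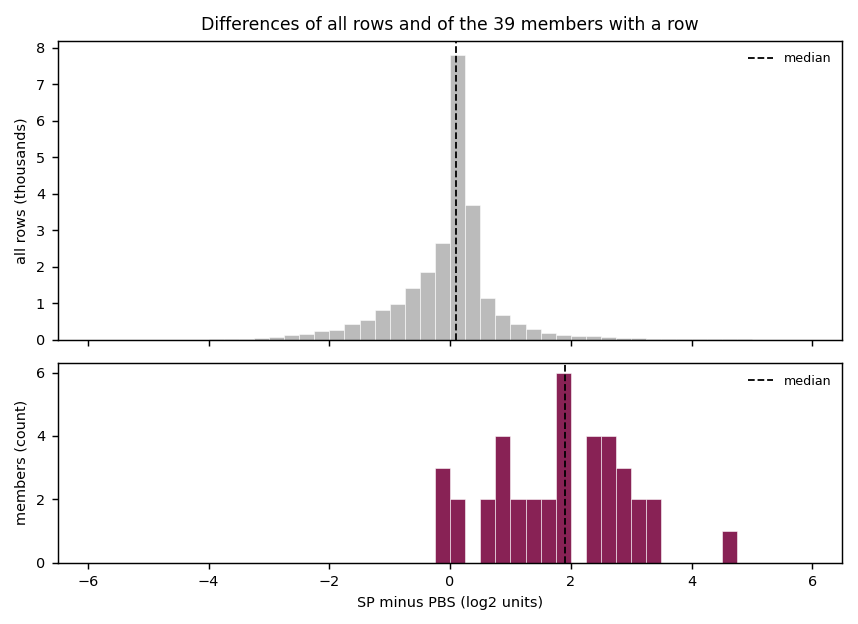
SP minus PBS in log2 units for all 24625 rows (upper panel) and for the 39 measured members (lower panel, count), in bins of equal width with dashed lines at the medians. All rows centre on 0.10, whereas the members centre on 1.90.

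The labels call these cells neutrophils, and the 9 neutrophil markers with a row had list means of 12.72 to 13.06 on the PBS arrays and 12.45 to 13.02 on the SP arrays. No neutrophil marker changed 2-fold, and 4 of 9 passed the adjusted p, against 44.1% of all rows. Of these 4, Mmp8 (-0.76 log2 units), Mmp9 (-0.59) and Retnlg (-0.47) were lower in SP and Itgam (0.32) was higher. The median difference of the neutrophil list was -0.24. Per the study's methods, purity was judged on stained cells of the pneumonia samples, and none is given for PBS. Markers of other lung cells were also present and differed between the groups. List means of the 7 ciliated epithelium markers with a row were 9.23 to 10.13 in PBS and 6.59 to 7.30 in SP. All 7 fell at least 2-fold, against 11.3% of all rows. So did 3 of 4 club cell, 4 of 6 alveolar type 2, 4 of 5 alveolar type 1, 4 of 6 endothelial, 2 of 5 fibroblast, 3 of 6 alveolar macrophage and all 5 B cell markers. Not every marker of these lists fell. Chil3 of the alveolar macrophage list rose 1.95-fold (adjusted p = 0.0216 by limma). The fibroblast markers Pdgfra (0.92 log2 units) and Col1a1 (0.36) and the alveolar type 1 marker Pdpn (0.44) had differences above 0 that did not pass. Of the monocyte and macrophage markers 2 of 8 rose at least 2-fold, 1 passed the adjusted p alone and 5 did not pass, with overlapping list means of 7.97 to 8.87 in PBS and 8.06 to 9.50 in SP. The list mean of plasmacytoid dendritic cells was 6.18 to 6.28 in PBS and 6.18 to 6.48 in SP. It rested on Tcf4, with group means of 9.70 in PBS and 9.34 in SP. The group means of Siglech, Ccr9 and Klk1 were dim, at 4.89 to 5.53. The list mean of NK cells was 5.05 to 5.35 in PBS and 5.05 to 5.67 in SP. Of eosinophil markers 1 of 4 and of T cell markers 1 of 6 passed the adjusted p, below 2-fold. In these bulk samples fewer cells of a type and less RNA per cell cannot be told apart, and the part of other cells in the members' values was not tested.

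The enzymes that act on nucleotides and RNA rose in 5 of 7 cases by at least 2-fold, and the other 2 passed the adjusted p below 2-fold. Rsad2 encodes viperin, which turns CTP into a chain terminator of viral RNA synthesis. Rsad2 signals were 10.49, 8.73, 11.16 and 11.12 in PBS replicates 1 to 4 and 13.38, 13.21, 13.41 and 13.29 in SP replicates 1 to 4. All SP values lay within a narrow band above every PBS value, whereas PBS replicate 2 stood far below its group. The difference was 2.95 ± 0.49 (SE), a 7.72-fold rise (adjusted p = 0.00175 by limma), and without PBS replicate 2 it was 2.40. Rsad2 had the largest spread of the members within PBS, with an SD of 1.14 (n = 4) against 0.09 in SP. Cmpk2, a mitochondrial nucleotide kinase, lies next to Rsad2 in the genome with no annotated gene between them. For Cmpk2, the 4 PBS arrays read 9.74, 8.62, 9.91 and 9.65 and the 4 SP arrays 12.28, 12.14, 12.37 and 12.19, in replicate order. It rose by 2.77 ± 0.26 and shared with Rsad2 the low value in PBS replicate 2. The row read for Cmpk2 is identified by a predicted non-coding transcript record of that gene.

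Adar, which deaminates adenosine in double-stranded RNA, rose 3.73-fold. Isg20, an RNA exonuclease, rose 2.60-fold, and Pnpt1, the mitochondrial polynucleotide phosphorylase, 2.10-fold. Pnpt1 stood close to the limit, at 0.97 log2 units without SP replicate 3. Apobec3, a cytidine deaminase that mutates retroviral DNA, rose by 0.95 ± 0.11 (adjusted p = 0.000311 by limma) and so fell short of 2-fold. Samhd1, which depletes the deoxynucleotides needed for reverse transcription, rose least in this group, by 0.54 ± 0.13, from 12.36 ± 0.28 to 12.90 ± 0.06 (SD, n = 4).

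RNA sensors, helicases and the translational control kinase rose at least 2-fold in 5 of 6 cases. Znfx1 is a helicase-domain protein that senses double-stranded RNA. Znfx1 read 9.03, 8.82, 9.16 and 8.94 on the PBS arrays and 11.44, 11.25, 11.59 and 11.34 on the SP arrays, from replicate 1 to 4. The groups were separated by more than the spread within either, and the difference was 2.42 ± 0.11 (adjusted p = 3.71e-06 by limma). Ddx60, a helicase that assists RIG-I-like receptors, rose 5.21-fold, a difference from Znfx1 within the errors. Eif2ak2, or PKR, the kinase that halts translation on sensing double-stranded RNA, rose 3.93-fold. Tdrd7, a tudor-domain protein, rose 3.60-fold, and Helz2, a nuclear helicase and coactivator, 3.26-fold.

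Mov10, an RNA helicase that restricts retroelements, did not pass the test. Mov10 signals were 11.02, 10.92, 11.68 and 11.73 in PBS replicates 1 to 4 and 11.25, 11.24, 10.87 and 11.01 in SP replicates 1 to 4. The 2 groups overlapped, with PBS replicates 3 and 4 above every SP array. The difference was -0.24 with a 95% interval of -0.71 to 0.23 (adjusted p = 0.334 by limma), and its sign turned, to 0.037, when the arrays were centred on their medians. A rise of 2-fold lay outside that interval.

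All 4 members of the ISG15 pathway rose at least 2-fold, whereas no row was matched to Isg15 itself. ISG15 is a ubiquitin-like protein that an activating enzyme (Uba7), a conjugating enzyme (Ube2l6) and a ligase (Herc6 in mice) attach to other proteins, and that Usp18 removes. Herc6 signals were 9.50, 8.68, 9.42 and 9.20 in PBS replicates 1 to 4 and 12.77, 12.71, 12.43 and 12.45 in SP replicates 1 to 4. For Ube2l6, the 4 PBS arrays read 8.84, 8.21, 9.01 and 8.79 and the 4 SP arrays 11.94, 11.89, 11.81 and 11.77, in replicate order. In both genes PBS replicate 2 was lowest and the SP arrays lay close together, well above all PBS arrays. Herc6 rose by 3.39 ± 0.18, 10.5-fold (adjusted p = 8.3e-06 by limma), and Ube2l6 by 3.14 ± 0.16, 8.82-fold. Usp18, which also blocks signalling at IFNAR2, rose 5.65-fold. Uba7 rose 2.61-fold, the smallest change of the pathway.

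Membrane and virus-trapping proteins were divided, with 4 of 9 members risen at least 2-fold, 2 risen by less and 3 that did not pass the test. Mx2 belongs to the Mx family of dynamin-like GTPases. Mx2 read 5.05, 4.98, 5.08 and 4.66 on the PBS arrays and 9.54, 9.30, 9.93 and 9.53 on the SP arrays, from replicate 1 to 4. The PBS signals were near the bottom of the scale, where 3 Y-linked rows lay between 4.33 and 4.90 over all arrays, and all SP signals were far above them. The difference was 4.64 ± 0.15, the largest of the members (adjusted p = 8.5e-07 by limma), with a 95% interval of 4.29 to 4.98. It was 24.9-fold as measured, and because the PBS signal may be background the rise may be larger than this estimate. The row is identified by a non-coding transcript record of Mx2, whose coding sequence is disrupted in common laboratory strains, so the value is a transcript level only.

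For Ms4a4c, the 4 PBS arrays read 8.69, 7.79, 8.29 and 8.25 and the 4 SP arrays 11.38, 11.17, 10.99 and 11.69, in replicate order. The gene encodes a tetraspanning membrane protein, and its lowest SP value was well above its highest PBS value. It rose by 3.05 ± 0.21, 8.28-fold. Bst2, or tetherin, which holds budding virions at the cell surface, rose 6.52-fold with little spread, from 7.21 ± 0.17 to 9.92 ± 0.16 (SD, n = 4). Rtp4, a receptor-transporting protein with antiviral activity, rose 3.34-fold, and without PBS replicate 2 the difference went from 1.74 to 1.35 log2 units. Shisa5, a membrane protein of the endoplasmic reticulum, rose only 1.56-fold, with SDs of 0.08 in PBS and 0.05 in SP.

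The Ifitm genes encode small membrane proteins that block the fusion of virus with endosomes, and they are neighbours on 1 chromosome: Ifitm1 lies directly beside Ifitm2, and 2 annotated genes separate it from Ifitm3. Their sequences are alike, and how far probes are shared between their rows was not tested. Ifitm3 had the highest mean signal of the members. Ifitm3 signals were 13.46, 13.29, 13.52 and 13.54 in PBS replicates 1 to 4 and 13.73, 13.65, 13.71 and 13.69 in SP replicates 1 to 4. The groups did not overlap, but the gap was small: the rise was 0.24 ± 0.08, 1.18-fold (adjusted p = 0.0355 by limma). It no longer passed with a replicate block, with dim rows left out, or without any 1 of PBS replicates 1 and 2 and SP replicates 1, 2 and 4 (adjusted p from 0.0537 to 0.0921).

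For Ifitm2, the 4 PBS arrays read 12.62, 12.15, 12.77 and 12.76 and the 4 SP arrays 12.39, 12.21, 12.84 and 12.43, in replicate order. Ifitm1 read 12.59, 12.32, 12.82 and 12.84 on the PBS arrays and 12.37, 12.39, 12.65 and 12.42 on the SP arrays, from replicate 1 to 4. For each of these genes the SP and PBS values overlapped. The difference was -0.11 for Ifitm2, with a 95% interval of -0.52 to 0.30 (adjusted p = 0.613 by limma), and its sign turned, to 0.17, with arrays centred on their medians. That of Ifitm1 was -0.18, with an interval of -0.48 to 0.12 (adjusted p = 0.273), and went to 0.10 with the same centring. The interval of each left out a 2-fold change in either direction. Ly6e, a GPI-anchored surface protein that inhibits coronavirus entry, also did not pass the test. Ly6e signals were 12.78, 12.83, 12.55 and 12.70 in PBS replicates 1 to 4 and 12.89, 12.91, 12.64 and 12.91 in SP replicates 1 to 4. The groups overlapped through the low SP replicate 3, and the difference was 0.12, with an interval of -0.10 to 0.34 (adjusted p = 0.306) and a sign that turned, to -0.035, when quantile normalization was applied again.

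Proteins of nuclear bodies, which hold viral genomes silent, rose in 2 of 3 cases by at least 2-fold. Daxx, a histone chaperone, had a difference within 1 SE of that of Herc6. Daxx read 8.45, 8.08, 8.63 and 8.45 on the PBS arrays and 11.79, 11.49, 12.28 and 11.64 on the SP arrays, from replicate 1 to 4. All SP arrays stood clear of PBS, with SP replicate 3 the highest. Daxx rose by 3.40 ± 0.19, 10.6-fold (adjusted p = 8.51e-06 by limma). Pml, the scaffold of these bodies, rose 4.96-fold. Sp100, another constituent, rose by 0.86 ± 0.14 and so fell short of 2-fold.

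Of the regulators, Nmi and Ifi35 form a complex that modulates interferon signalling, and both rose. Nmi signals were 8.21, 7.94, 8.32 and 7.81 in PBS replicates 1 to 4 and 11.11, 10.99, 10.89 and 10.68 in SP replicates 1 to 4. The difference was 2.85 ± 0.14, 7.19-fold (adjusted p = 5.2e-06 by limma). Ifi35 rose 5.69-fold and varied little between replicates, going from 8.91 ± 0.08 to 11.42 ± 0.12 (SD, n = 4). Lgals9, a galectin that binds sugars on immune cells, and Lgals3bp, a secreted glycoprotein bound by galectins, rose by less than 2-fold. For Lgals9, the 4 PBS arrays read 11.12, 10.36, 11.51 and 11.60 and the 4 SP arrays 12.09, 12.02, 12.20 and 12.06, in replicate order. PBS replicate 2 was again the low array, and the SP arrays were nearly equal. The difference was 0.95 ± 0.25 (adjusted p = 0.016 by limma), and it was 0.69 without PBS replicate 2. Lgals3bp rose by 0.81 ± 0.15.

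All 6 induced genes with less defined roles rose at least 2-fold. Tor3a read 9.31, 9.76, 9.29 and 9.18 on the PBS arrays and 12.08, 12.05, 11.94 and 11.86 on the SP arrays, from replicate 1 to 4. Tor3a, an ATPase of the endoplasmic reticulum, had its highest PBS value in replicate 2, and it rose by 2.60 ± 0.13, 6.05-fold (adjusted p = 6.14e-06 by limma). Ifi44 rose 5.97-fold, Epsti1 3.93-fold and Phf11d 3.39-fold. Plac8 signals were 10.05, 9.64, 10.22 and 9.81 in PBS replicates 1 to 4 and 11.89, 11.53, 12.40 and 11.58 in SP replicates 1 to 4. Plac8, a cysteine-rich protein found in myeloid cells, had the largest spread of the members within SP, with an SD of 0.40 (n = 4) that came mainly from a high replicate 3. It nevertheless rose by 1.92 ± 0.21, 3.79-fold. Samd9l, an antiviral restriction factor, rose 2.13-fold and stood at 0.86 log2 units without PBS replicate 2.

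**Figure D2:**
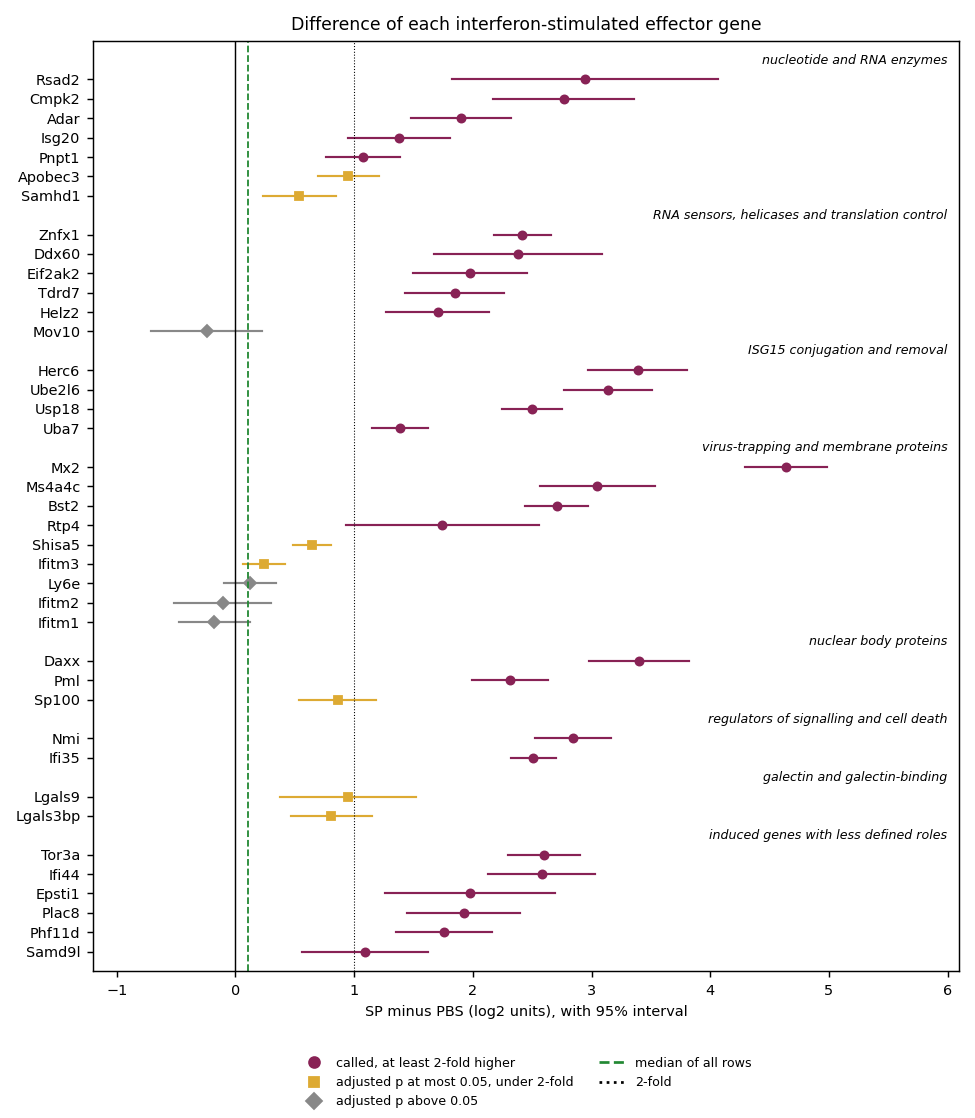
SP minus PBS of the 39 measured members in log2 units, grouped by role, with points for the difference, bars for its 95% interval (n = 4 arrays per group) and symbols for the call. Circles (28 members) lie right of the dotted 2-fold line, squares (7) between it and 0, and the intervals of the 4 diamonds (Mov10, Ly6e, Ifitm2 and Ifitm1) include 0.

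**Figure D3:**
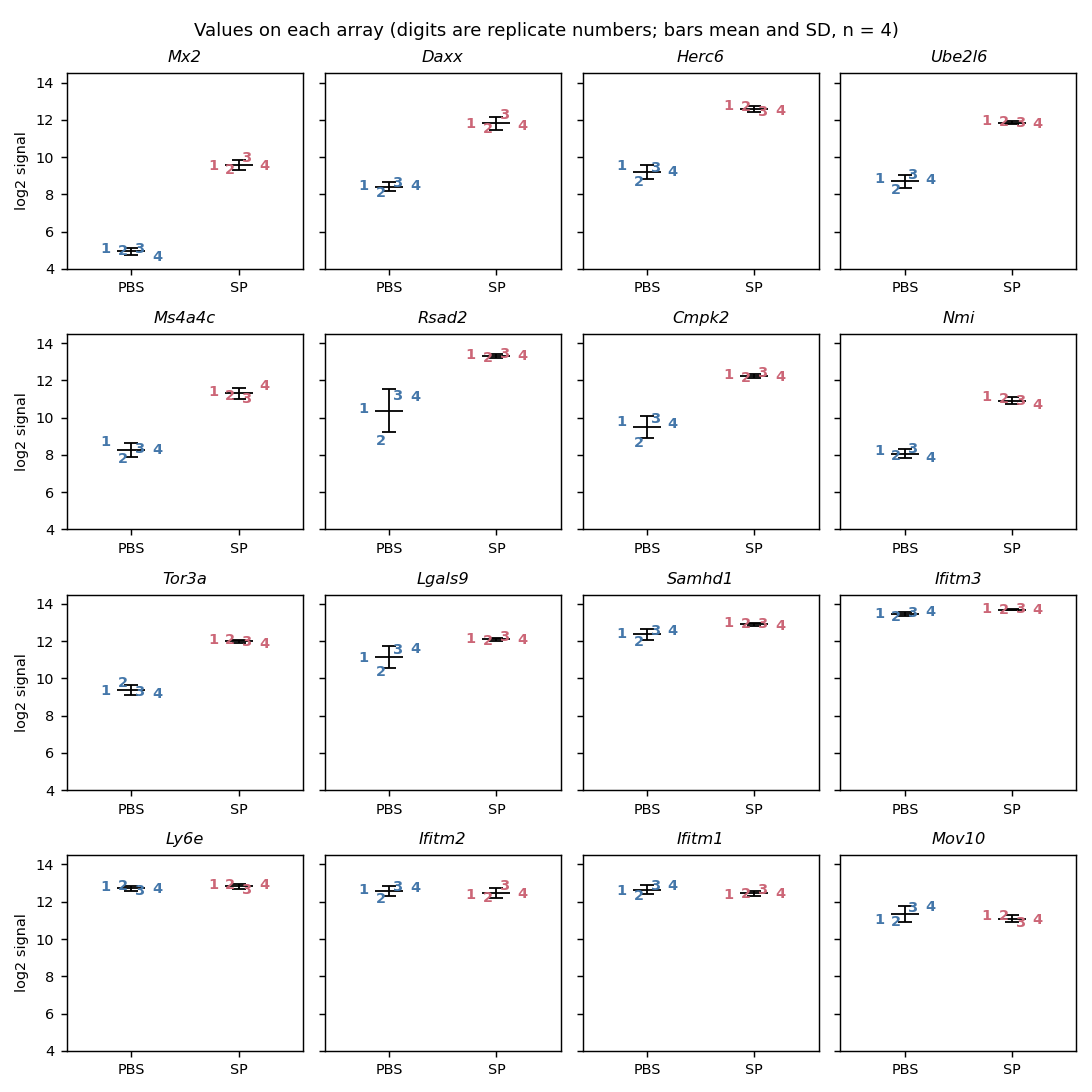
Log2 signal of 16 members on each array, where each digit is the replicate number of 1 array and bars are mean and SD (n = 4 per group), on 1 shared axis. Signals of Mx2 in PBS lie between 4.66 and 5.08, whereas those of Ifitm3 lie between 13.29 and 13.73 over all arrays.

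The members differed in how high they already were without bacteria. The 28 members that rose at least 2-fold had PBS means of 4.94 to 11.45, and reached 9.58 to 13.32 in SP. The 7 that rose by less had PBS means of 10.91 to 13.45, and the 4 that did not pass the test 11.34 to 12.72. The highest value in the whole table was 14.45. Probe signals do not rank the abundance of different genes, and whether bright probes had less room to rise was not tested.

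Spread within the groups was not symmetrical. The SD was larger in SP than in PBS for 12 of 39 members (30.8%), against 65.7% of all rows, and the median SD of the members was 0.26 in PBS and 0.16 in SP. Within PBS, replicate 2 gave the lowest value in 28 of 39 members (71.8%), whereas it was lowest in 36.3% of all rows. Its mean over the members was 9.53, against 9.92 to 10.06 on the other PBS arrays. PBS replicate 3 was highest in 20 of 39 members, against 32.8% of all rows. The exceptions to the low replicate 2 included Tor3a, Apobec3 and Lgals3bp. These members are not independent of each other, since they were measured on the same arrays. PBS replicate 2 also had the highest list means of the PBS arrays for ciliated (10.13), club cell (13.27), alveolar type 2 (12.76), alveolar type 1 (10.70) and endothelial markers (11.68). It had the lowest for neutrophil (12.72), monocyte and macrophage (7.97), T cell (5.34), NK cell (5.05) and eosinophil markers (4.72). The part of these cell types in the low values was not tested. Without this array 27 members rose at least 2-fold in place of 28, and the median difference was 1.75.

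**Figure D4:**
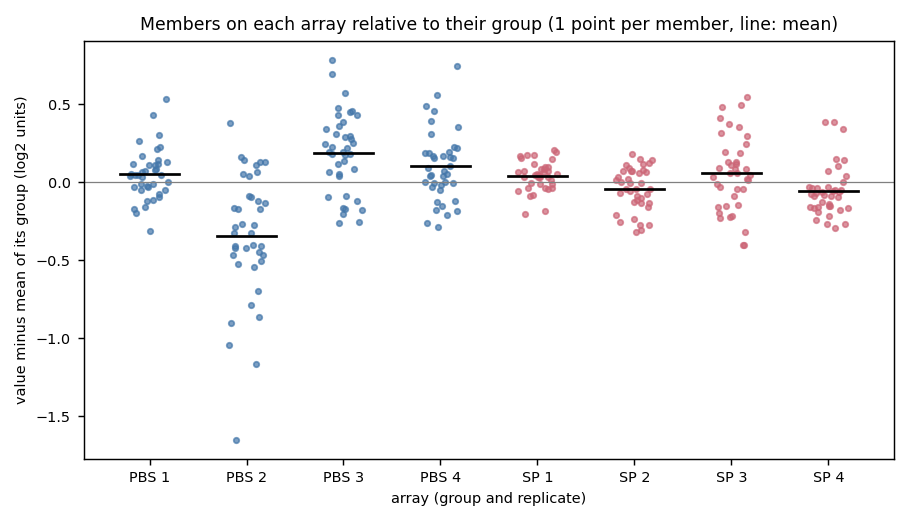
Each member's log2 signal on an array minus the mean of that member over the 4 arrays of its group, with 1 point per member (39 per array) and a line at the mean. PBS replicate 2 lies lowest, with a mean deviation of -0.34, whereas the SP arrays lie between -0.06 and 0.06.

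The genes upstream of the members were read from lists of the pathway. Of the 19 interferon genes with a row, only Ifng rose at least 2-fold, 8 others passed the adjusted p and 10 did not. Over all rows 6.37% rose at least 2-fold and 44.1% passed the adjusted p, so passing it does not set these genes apart. Their median difference was 0.45, against 0.10 over all rows. These rows were dim, with list means of 4.71 to 4.81 in PBS and 5.06 to 5.44 in SP, against 4.42 to 4.53 and 4.58 to 4.68 for the 3 Y-linked rows. 1 of the Y-linked rows (Kdm5d, 0.19 higher in SP) also passed the adjusted p. For Ifnb1, the 4 PBS arrays read 4.39, 4.29, 4.49 and 4.28 and the 4 SP arrays 4.70, 4.39, 6.88 and 5.37, in replicate order. SP replicate 3 stood out at 6.88, replicates 1 and 4 were also above all PBS arrays and replicate 2 was among them. The difference of 0.97 had an interval of -0.12 to 2.06 (adjusted p = 0.122 by limma). Ifng read 6.08, 5.52, 5.78 and 5.34 on the PBS arrays and 7.39, 7.63, 6.27 and 6.26 on the SP arrays, from replicate 1 to 4. Ifng encodes IFN-γ and was 2.31-fold higher (adjusted p = 0.022 by limma), with SP replicates 1 and 2 above the other 2. In SP replicates 1 to 4 the T cell list means were 6.43, 6.61, 5.59 and 5.50 and the NK cell list means 5.67, 5.65, 5.07 and 5.05. Both were highest on the same arrays as Ifng, and their part in its values was not tested.

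Of the 6 receptor genes, 2 rose at least 2-fold, against 6.37% of all rows. Ifnar1, which encodes a subunit of the type I receptor, rose 2.29-fold, from 10.13 ± 0.27 to 11.33 ± 0.09 (SD, n = 4). Its partner Ifnar2 rose 1.52-fold. Ifngr1, the ligand-binding chain of the IFN-γ receptor, fell by 0.57 log2 units (adjusted p = 0.00958 by limma), with no overlap between the groups. Ifngr2, the other chain of that receptor, rose by 0.65 log2 units (adjusted p = 0.00272 by limma), also with no overlap. Both chains were named after their values were seen. Of 8 other signalling genes (JAK kinases, Stat2 and IRFs), 5 rose at least 2-fold, 1 passed the adjusted p alone and 2 did not pass, with a median difference of 1.52. Stat2 rose 6.93-fold and Irf7, the factor that amplifies IFN-α production, 5.21-fold. Irf9 rose 2.52-fold. Each of these 3 had its lowest PBS value in replicate 2, as did all 6 receptor genes, 6 of the 8 signalling genes and all 5 feedback inhibitors. Of the feedback inhibitors, 2 of 5 rose at least 2-fold. The IFIT, OAS, ISG15 and MX1 list had 11 of its 16 genes on a row, all of them IFIT or OAS genes. Neither Isg15 nor Mx1 had a row, so neither was read. All 11 rose, with a median difference of 2.91 and the lowest PBS value in replicate 2 each time.

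Returning to the promoter windows, the 10 members with an ISRE core had a median difference of 1.40 and 5 of them rose at least 2-fold. The 24 measured members with a window but no such core had a median of 1.91, with 19 risen at least 2-fold. For the GAS core the medians were 1.64 in 8 members with it and 1.88 in 26 without. Windows with the ISRE core belonged to members over most of the range, from Rsad2 at 2.95 to Ifitm2 at -0.11, the latter within its error of 0.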

How the data were processed

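Lung neutrophil RNA of 8 samples (4 PBS, 4 SP, grouped and numbered by sample title) was measured on 1 array each. Per the study's methods, the authors made the deposited log2 values by robust multi-array averaging: background correction, corrections for the sequence and GC content of probes, then quantile normalization, then median polish over probes consolidated by gene. The submitters' processing notes name Affymetrix Expression Console, RMA and Partek. Such values are relative within an array, so a change in total RNA per cell cannot be read from them. Array medians were 6.06 to 6.20 in PBS and 5.78 to 5.91 in SP. They were thus unequal although quantile normalization is named, and the reason was not tested. Arrays correlated at 0.979 to 0.997 within PBS and 0.970 to 0.995 within SP. The number of arrays limits the precision. The paper describes each sample as coming from a mouse, which the labels do not state.

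RefSeq identifiers were matched, without versions, to symbols of GRCm38.p6, and 19915 of 24625 rows (80.9%) received one. Where a symbol has several rows, the row with the highest mean would be read, which no member required. SP was compared with PBS over all rows in limma 3.58.1 (R 4.3.3; lmFit and eBayes, no covariates, two-sided), with Benjamini-Hochberg adjustment. A call needed an adjusted p of at most 0.05 and, for 2-fold, a difference of at least 1 log2 unit. The code was tested on simulated data. Dixon's test was applied to each group of 4 values. Alternatives were the methods' t-test, an intensity trend with a robust prior, a replicate block, array weights, centred arrays, renewed quantile normalization, leaving out dim rows and leaving out each array. Values in every sample are given for the 6 largest differences, members that did not pass, the Ifitm genes, the leader of each role group and the largest spreads and mean; Cmpk2 was added after its values were seen. 1 gene of the signalling list is not reported here. The members, gene lists and tests were chosen with earlier results of these data known. Promoter sequences are from RefSeq (GRCm38.p6), searched in Python 3.11.15.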

Additional observations from a re-analysis of the deposited data

Results flagged for a closer look

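The SP replicate 4 signal of Apobec3, 11.60, lay apart from the other 3 SP arrays, which read 11.93 to 11.98, and its gap was 0.875 of the range of the group. Without that array Apobec3 passed the 2-fold limit, at 1.04 log2 units. The SP replicate 3 signal of Ly6e, 12.64, lay below the others, at 12.89 to 12.91, with a ratio of 0.923. Both ratios exceed Dixon's 95% critical value for 4 samples. These were 2 of 78 groups tested, and chance alone gives about 5% of them.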

How the results depend on the processing

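Over the alternatives, 569 values of single members kept their direction and their side of the adjusted p of 0.05. A further 7 values, all of Ifitm3, no longer passed it, 5 newly passed it and 4 turned sign. These labels do not follow the 2-fold limit, which is counted next. The count of members risen at least 2-fold was 28 with the methods' t-test, the trended prior and dim rows left out. It was 26 with array weights (Pnpt1 and Samd9l lost), 27 with quantile normalization again (Samd9l lost) and 32 with arrays centred on their medians (Apobec3, Sp100, Lgals9 and Lgals3bp gained). Leaving out 1 array gave 27 to 29: Samd9l was lost without PBS replicate 2 and Pnpt1 without SP replicate 3, and Lgals9 was gained without PBS replicate 3 or 4 and Apobec3 without SP replicate 4. Centring moved the median of all rows from 0.10 to 0.38, raised the rows higher 2-fold from 1568 to 2375 and the rows past the adjusted p from 10860 to 18255, and lowered the share of lower rows among the 2-fold calls from 63.9% to 44.4% (53.9% with quantile normalization again). Centring turned the sign of Mov10 (0.037), Ifitm1 (0.10) and Ifitm2 (0.17), and quantile normalization again that of Ly6e (-0.035). Array weights brought past the threshold Ifitm1 (-0.34, adjusted p = 0.0198 by limma), Ifitm2 (-0.32, 0.0437) and Ly6e (0.20, 0.0466). Quantile normalization again did so for Ifitm1 (-0.39, 0.0107) and centring for Ly6e (0.40, 0.00492). The cause was not tested. Same-numbered arrays correlated at 0.02, 0.03, 0.35 and -0.27 in their deviations, and different-numbered arrays at -0.36 to 0.28. With so few arrays these values cannot settle whether the numbers pair the samples, and the main fit treated the samples as unpaired. With a replicate block 28 members rose at least 2-fold, and the call of Ifitm3 was lost (adjusted p = 0.0619).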
